A study of Drosophila melanogaster with 10 samples.

Results

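Flight muscle of Drosophila melanogaster was compared with the larval tissue it grows from, in animals in which the gene Rbf was targeted by RNA interference. The 5 libraries labelled Rbf-KD out of 10 in the series were used, 3 from larval notum (myoblasts in the labels) and 2 from flight muscle. The other 5, labelled WT and divided 3 to 2 in the same way, served only to tell which of the stage differences were also made in the control. All animals carried UAS-Dicer2, which strengthens RNA interference, and Mef2-Gal4, which switches on transgenes in the muscle lineage. The Rbf-KD animals had UAS-Rbf-RNAi in addition and the WT animals UAS-mCherry-RNAi at attP2, so the control also expressed a hairpin. Flies were kept at 25 °C. Notum was cut from wing discs of wandering larvae at the last larval stage, and flight muscle was dissected at about 96 h after puparium formation, when the animals are pharate. The question is which changes from precursor tissue to finished muscle are still made when Rbf is targeted. The groups are limited as a model: the hairpin acts only where Mef2-Gal4 is active, the notum also holds disc epithelium in which it is not, and nothing in the labels says whether the replicates were separate collections of animals. The p-values below therefore measure the spread between these libraries, which may be technical.

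Rbf is the main fly member of the retinoblastoma family. Proteins of this family bind E2F and Dp, which switch on genes for DNA synthesis and division, and hold them back when cells leave the cell cycle. Indirect flight muscle forms in the pupa: myoblasts that proliferated on the notum part of the wing disc stop dividing, fuse, and build fibrillar sarcomeres packed between large mitochondria. The muscle runs on trehalose and glycogen that are burned through glycolysis, the glycerol phosphate shuttle and oxidative phosphorylation, and the adult fibre nuclei no longer divide.

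Gene counts summed to between 44950160 and 51679859 in the 3 Rbf-KD notum libraries and to 53864590 and 73408335 in the 2 Rbf-KD flight muscle libraries. Muscle libraries were dominated by few genes: the top 1% of genes by count held 63.5% and 64.1% of an Rbf-KD muscle library and 29.9% to 30.3% of an Rbf-KD notum library, against 76.7% in each WT muscle library. Levels are given as CPM, counts scaled to a common library size by TMM, which assumes that most genes do not change. Log2 fold changes are flight muscle over notum, and a gene was called at an edgeR adjusted p under 0.05. The ± values are the absolute log2 change divided by the square root of the F statistic of the edgeR test. They approximate a standard error and are unreliable for genes near 0 counts in a group. The scaling factors were 1.76 to 1.95 in notum, 0.55 and 0.60 in Rbf-KD muscle and 0.277 in WT muscle. Every direction below is therefore relative to this scaling. With it the median log2 change of all genes was -0.23 in Rbf-KD, -0.50 in WT and 0.13 in the difference between them. Scaling by library totals instead moved the median of all genes by -1.67 in Rbf-KD, by -2.75 in WT and by 1.07 in the difference between them. In bulk tissue, fewer cells of a type and less RNA per cell cannot be told apart.

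The targeted gene went against the label in muscle. For Rbf (FBgn0015799, on the X chromosome), 4025, 4081 and 4336 reads were counted in Rbf-KD notum, and 1210 and 1454 reads in flight muscle labelled Rbf-KD. In CPM these are 45.9, 44.8 and 51.3 in notum and 37.7 and 36.0 in muscle. The muscle libraries lay below the notum libraries without overlap, but the difference of -0.36 ± 0.20 was not called (edgeR adjusted p = 0.13). It was called when only the 5 Rbf-KD libraries were fitted (0.00975) and when WT notum library 1 (0.0223) or 2 (0.0349) was left out. In WT the level fell from between 40.2 and 69.6 CPM in notum to 11.8 and 13.6 CPM in muscle, a log2 change of -2.12. The muscle libraries labelled Rbf-KD thus held more Rbf reads than the WT ones. The test of the difference gave 1.76 ± 0.29 (edgeR adjusted p = 0.00188). The group names below are the labels.

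The tissue labels were checked against marker genes. Thick filament genes summed to between 30.0 and 47.8 CPM in Rbf-KD notum and to 200520 and 213280 CPM in Rbf-KD muscle. Markers of disc epithelium and notum patterning summed to between 3439 and 4031 CPM in Rbf-KD notum and to 547 and 490 CPM in Rbf-KD muscle. Markers of adult muscle precursors summed to 1520 to 1735 CPM in Rbf-KD notum and to 1388 and 1498 CPM in Rbf-KD muscle, of which Amph, an amphiphysin of the excitation membrane of muscle, made up 929 and 989 CPM. Of the 14 genes of this list, 7 fell, 3 rose and 4 were not called in Rbf-KD, so as a set it did not separate the tissues. The precursor gene twist (twi) was picked after its values were seen. It was at 7.22, 11.3 and 13.997 CPM in Rbf-KD notum and at 0.437 and 0.124 CPM in Rbf-KD muscle. Fat body markers summed to 8103 and 7682 CPM in the Rbf-KD muscle libraries, against 132 to 285 CPM in Rbf-KD notum and 765 and 636 CPM in WT muscle.

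Of 13407 genes tested, 4679 (34.9%) were higher in Rbf-KD flight muscle than in Rbf-KD notum and 5255 (39.2%) were lower, 9934 (74.1%) in all. The change exceeded 2-fold for 3611 (26.9%) of the higher and 4066 (30.3%) of the lower genes. For 11398 genes (85.0%) the values of the 2 muscle libraries did not overlap with those of the 3 notum libraries. In WT, 4468 genes (33.3%) were higher and 5823 (43.4%) lower, 10291 (76.8%) in all. The contrasts share no library, although they share the estimate of spread, so their calls can be set against each other. Most calls were shared: 3866 genes were higher in both genotypes, which is 86.5% of the genes higher in WT and 82.6% of those higher in Rbf-KD, and 4618 were lower in both, 79.3% of those lower in WT and 87.9% of those lower in Rbf-KD. A total of 326 genes were called in opposite directions, 97 of them higher in WT and 229 lower in WT. Across the 13407 genes the log2 changes of the genotypes had a Pearson correlation of 0.884 and a Spearman correlation of 0.885, given as a description, since genes are not independent replicates.

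**Figure D1:**
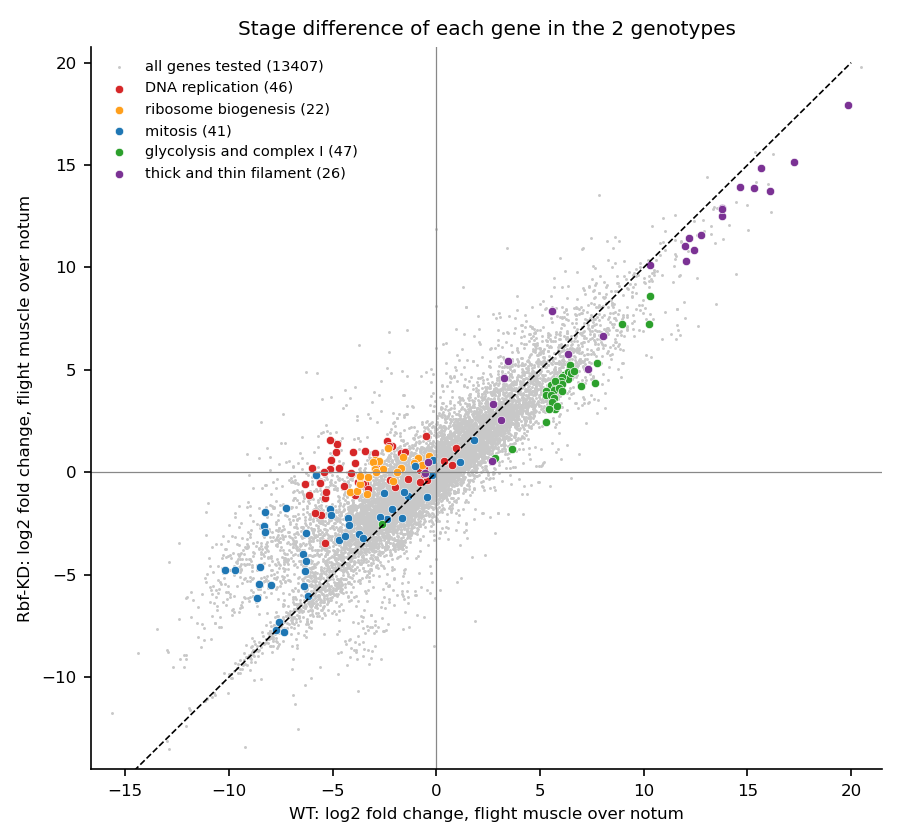
Each point is a gene, with its log2 fold change (flight muscle over notum) in WT on the x axis and in Rbf-KD on the y axis, and the dashed line marks equal change. Filament genes and energy genes lie at the upper right, the energy genes below the line, and DNA replication and ribosome biogenesis genes lie near 0 in Rbf-KD while they are negative in WT.

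The size of the stage difference was tested with the interaction, the stage difference in Rbf-KD minus that in WT. It was called for 4069 genes (30.3%), 2310 (17.2%) with a higher and 1759 (13.1%) with a lower value in Rbf-KD. With DESeq2 size factors the split was 1901 higher and 2256 lower, so the balance of the directions rests on the scaling. For 5775 genes (43.1%) both stage differences were called and the interaction was not, which does not show that they were equal. For 2323 (17.3%) both were called in one direction and the change was smaller in Rbf-KD, and for 386 (2.88%) it was larger. A further 680 genes were called in WT alone with the interaction called, and 350 in Rbf-KD alone. The median size of the change was 1.61 on the log2 scale in Rbf-KD and 1.97 in WT.

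**Figure D2:**
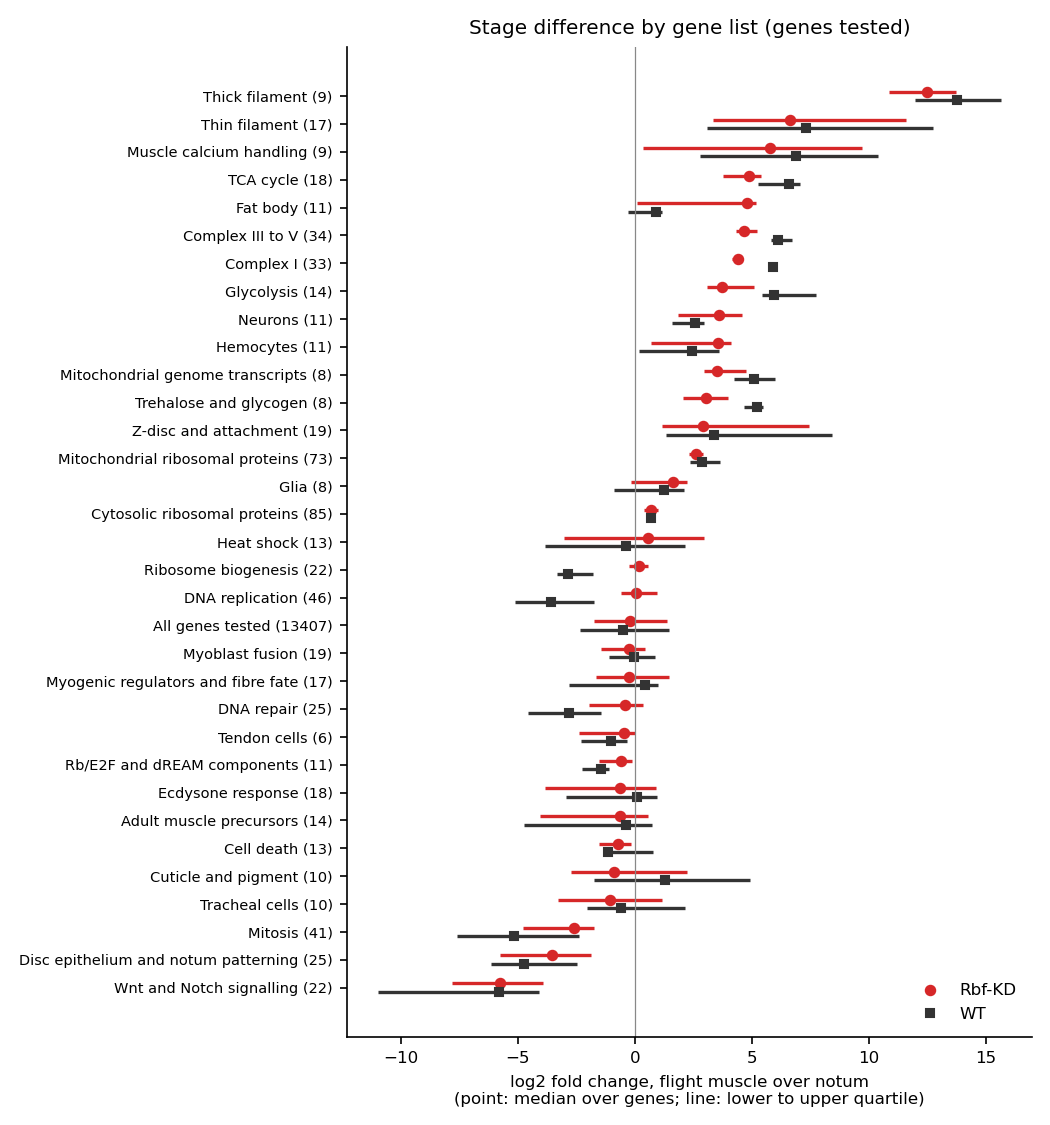
Points are the median log2 fold change (flight muscle over notum) of the genes of each list, in Rbf-KD (red circles) and in WT (black squares), and lines run from the lower to the upper quartile over genes. The Rbf-KD medians of the DNA replication and ribosome biogenesis lists sit at 0.07 and 0.17, beside -3.60 and -2.84 in WT, while the Wnt and Notch medians sit close together, at -5.77 and -5.79.

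Genes of the contractile apparatus rose in Rbf-KD muscle. All 9 thick filament genes tested and 15 of 17 thin filament genes rose, with medians of 12.50 and 6.65 on the log2 scale, against 34.9% and a median of -0.23 for all genes. Act88F (FBgn0000047, arm 3R), the actin of indirect flight muscle, was at 4.13, 3.02 and 3.03 CPM in Rbf-KD notum and at 52746 and 51068 CPM in Rbf-KD muscle. Its log2 change was 13.90 ± 0.22 (edgeR adjusted p = 5.14e-09). Every muscle library was far above every notum library for this gene.

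The 6 highest fold changes by the naming rule were flightin (fln), a myosin-binding protein of flight muscle, at 17.93, the sarcoplasmic calcium-binding protein Scp1 at 15.53, the flight muscle troponin C TpnC4 at 15.15, the alkali light chain Mlc1 at 14.87, the cuticle protein gene Ccp84Ae at 14.09 and the actin Act79B at 13.92. The count of fln is uncertain because an antisense RNA gene overlaps it. The regulatory light chain Mlc2 rose by 12.90 ± 0.26, from 7.34, 8.07 and 7.80 CPM to 55765 and 62410 CPM. Myosin heavy chain (Mhc), named outside the rule, was at 1.80 to 7.11 CPM in Rbf-KD notum and at 58872 and 61295 CPM in Rbf-KD muscle, beside 300080 and 323150 CPM in WT muscle. The interaction of Mhc was not called. Tropomyosin Tm1 rose by 6.65 ± 0.18 and the myosin light chain kinase-like gene sqa by 5.79 ± 0.13.

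The interaction was called lower with TMM for 3 of 9 thick filament and 5 of 17 thin filament genes and higher for 2 thin filament genes, against 13.1% lower and 17.2% higher among all genes. Their median interactions were -0.96 and -0.75 on the log2 scale, and turned to 0.14 and 0.32 under scaling by library totals. Sarcomere length short (sals) rose by 5.06 ± 0.22 in Rbf-KD and by 7.31 in WT. Tropomodulin (tmod), which caps the pointed ends of thin filaments, was at 50.4, 63.0 and 63.1 CPM in Rbf-KD notum and 75.1 and 98.0 CPM in Rbf-KD muscle, against 445 and 350 CPM in WT muscle. The rise of tmod in Rbf-KD, 0.56 ± 0.17, was no longer called without Rbf-KD muscle library 2 (0.34, edgeR adjusted p = 0.187), and it turned to -1.12 under library totals.

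Z-disc and attachment genes followed the filaments. Of 19 tested, 16 rose and 2 fell in Rbf-KD, against 34.9% and 39.2% of all genes. The median was 2.92 in Rbf-KD and 3.38 in WT. The interaction was called lower for 5 of the 19, against 13.1% of all genes. The median interaction of -0.62 turned to 0.45 under library totals. Alpha-actinin (Actn), the crosslinker of Z-discs, rose by 5.28 ± 0.11 from between 104.5 and 113.8 CPM to 3903 and 4569 CPM. The formin Fhos rose by 4.57 ± 0.11 and the LIM protein gene Mlp60A by 9.63 ± 0.28.

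Genes of excitation and calcium release were also switched on. Of 9 muscle calcium handling genes, 7 rose in Rbf-KD and 1 fell, with a median of 5.78 beside 6.90 in WT. Among all genes 34.9% rose and 39.2% fell in Rbf-KD. The voltage-gated calcium channel Ca-alpha1D went from 0.570, 0.472 and 0.580 CPM to 1199 and 1525 CPM, and WT muscle had 1614 and 1255 CPM. The ranges of the 2 genotypes overlapped in muscle, and the interaction was -0.51 ± 0.27 (edgeR adjusted p = 0.206). The ryanodine receptor RyR rose by 10.65 ± 0.40. Orai (FBgn0041585, arm 2R), the channel of store-operated calcium entry, was the exception. It was at 39.8, 41.6 and 41.8 CPM in Rbf-KD notum and 22.8 and 27.8 CPM in Rbf-KD muscle, a change of -0.70 ± 0.12, while it rose by 2.80 in WT to 281 and 299 CPM (interaction -3.50 ± 0.17, edgeR adjusted p = 3.87e-06).

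Of 17 myogenic regulators and fibre fate genes, 5 rose and 7 fell in Rbf-KD, shares near those of all genes (34.9% and 39.2%), with a median of -0.26 against -0.23. Mef2 (FBgn0011656, arm 2R), the transcription factor that drives muscle structural genes, rose by 2.09 ± 0.21 from 55.9, 77.4 and 71.8 CPM to 293 and 288 CPM. In WT it rose by 2.90, to 511 and 462 CPM, and the interaction of -0.81 ± 0.30 was not called (edgeR adjusted p = 0.074). Bruno 1 (bru1), the splicing regulator of the fibrillar fibre type, was named outside the rule: it went from between 0.0947 and 0.536 CPM to 1753 and 1962 CPM. Spalt-related (salr), which acts with spalt major in fibrillar fate, rose more in Rbf-KD (2.42 ± 0.14) than in WT (0.98), with an interaction of 1.44 ± 0.20. The opposite held for lame duck (lmd), a zinc-finger activator of fusion-competent myoblasts named outside the rule. It was at 0.842 and 1.11 CPM in Rbf-KD muscle, inside the notum range of 0.320 to 1.141 CPM, and at 14.9 and 15.05 CPM in WT muscle.

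Among 14 adult muscle precursor genes, 7 fell and 3 rose in Rbf-KD, and among 19 fusion genes 8 fell and 5 rose, beside 39.2% lower and 34.9% higher among all genes. The genes of both lists named below all fell, and the members that rose are not named here. Notch (N), the receptor that keeps precursors undifferentiated, fell by 4.73 ± 0.17, from 1009, 1057 and 1050 CPM to 36.1 and 42.3 CPM. The Notch pathway channel protein gene bib fell by 6.44 ± 0.35 and the homeobox gene Dr fell by 4.49 ± 0.29. The fusion genes rols, a scaffold of founder cells, and hbs, an adhesion receptor of fusion-competent cells, had log2 changes of -3.22 ± 0.23 and -5.19 ± 0.45, and blow, an actin regulator at the fusion site, fell by 1.55 ± 0.18. The apterous gene (ap), a homeobox factor of the dorsal disc, fell by 4.81 ± 0.26, and the splicing factor gene mbl fell by 1.67 ± 0.15. Holes in muscle (Him), an inhibitor of Mef2 activity, fell by 2.77 ± 0.25 in Rbf-KD and fell by 6.42 in WT. It remained at 1.15 and 1.06 CPM in Rbf-KD muscle, against 0.126 and 0.0669 CPM in WT muscle.

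**Figure D3:**
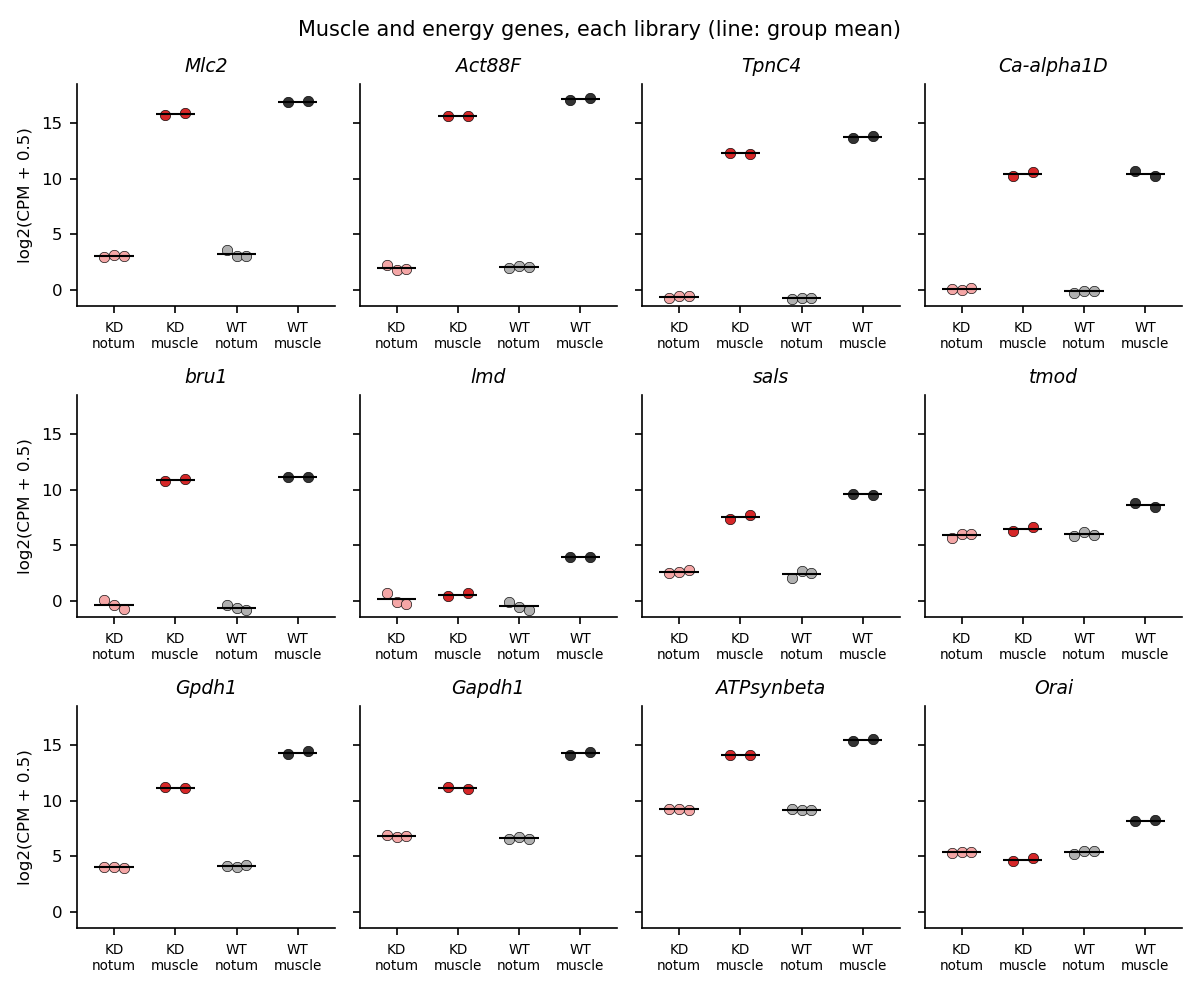
Points are log2(CPM + 0.5) of each library for 12 genes, in Rbf-KD notum, Rbf-KD flight muscle, WT notum and WT flight muscle, and black lines are group means. Filament genes, the calcium channel gene and bru1 rise in both genotypes, whereas lmd and Orai are high in WT muscle alone and the metabolic genes reach a lower level in Rbf-KD muscle.

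Energy metabolism rose in Rbf-KD muscle, but by less than in WT. Of 14 glycolytic genes, 13 rose in Rbf-KD, against 34.9% of all genes, with a median of 3.71 on the log2 scale beside 5.94 in WT. The interaction was called lower for those 13, against 13.1% of all genes, and the median interaction of -2.45 kept its sign under the other scalings (-2.61 with DESeq2 size factors, -1.37 with library totals). Gpdh1 (FBgn0001128, arm 2L), the cytosolic enzyme of the glycerol phosphate shuttle, was at 15.5, 15.6 and 15.3 CPM in Rbf-KD notum and at 2430 and 2256 CPM in Rbf-KD muscle. WT muscle had 18526 and 22371 CPM. Both genotypes rose far above notum, and the muscle libraries of the genotypes did not overlap.

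The other glycolytic genes gave the same picture. Gapdh1, glyceraldehyde-3-phosphate dehydrogenase, rose by 4.37 ± 0.12 in Rbf-KD and by 7.67 in WT. The rises of phosphoglycerate mutase Pglym78 (5.36 ± 0.12), pyruvate kinase PyK (3.99 ± 0.10) and enolase Eno (3.08 ± 0.09) were below their WT values of 7.77, 6.05 and 5.71. Eno overlaps another gene and is uncertain. Lactate dehydrogenase (Ldh), named outside the rule, was the list's remaining member and fell in both genotypes, with log2 changes of -2.52 ± 0.35 in Rbf-KD and -2.60 in WT.

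Trehalose and glycogen genes rose for 7 of 8 members in Rbf-KD and fell for 1, against 34.9% and 39.2% of all genes. The median was 3.06 beside 5.21 in WT. The interaction was called lower for 7, against 13.1% of all genes. Under library totals it was called lower for 5 and higher for 1, with a median of -0.94. Glycogen phosphorylase (Glyp), which releases glucose units from glycogen, rose by 5.83 ± 0.14. Phosphoglucomutase (Pgm1) rose by 3.18 ± 0.11 and UGP, which makes the nucleotide sugar for glycogen synthesis, by 2.26 ± 0.09, beside 5.91 and 5.07 in WT.

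Most genes of the TCA cycle and of the respiratory complexes rose less in Rbf-KD than in WT with TMM. Of 18 TCA cycle genes 16 rose, of 33 complex I genes 32, and of 34 genes of complexes III to V 32, with medians of 4.89, 4.43 and 4.68 beside 6.58, 5.89 and 6.14 in WT. Among all genes 34.9% rose in Rbf-KD. The interaction was called lower for 16, 33 and 31 genes of these lists and higher for 1, 0 and 2. The shares among all genes were 13.1% lower and 17.2% higher. Under library totals the median interactions were -0.53, -0.47 and -0.44. Then 9, 15 and 9 genes were called lower and 2, 0 and 3 higher. Of all 13407 genes, 365 were called lower and 6989 higher under that scaling. The ATP synthase subunit gene ATPsynbeta (FBgn0010217, chromosome 4) went from 595.7, 606.1 and 590.3 CPM to 17634 and 17540 CPM in Rbf-KD, and WT muscle had 44275 and 48854 CPM. Cytochrome c (Cyt-c-p) rose by 6.68 ± 0.13 in Rbf-KD, the complex I genes ND-42 and ND-13A by 5.22 ± 0.11 and 4.44 ± 0.11. The isocitrate dehydrogenase subunits Idh3g and Idh3a rose by 5.29 ± 0.11 and 5.38 ± 0.12 and the pyruvate dehydrogenase subunit Pdhb by 5.02 ± 0.11.

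All 8 transcripts of the mitochondrial genome rose in Rbf-KD, against 34.9% of all genes, with a median of 3.50 beside 5.10 in WT. The cytochrome oxidase transcript mt:CoI went from 3476, 3610 and 3150 CPM to 97858 and 101970 CPM, and WT muscle had 241440 and 227020 CPM. For mt:CoIII the rise was 4.93 ± 0.18 and for mt:ATPase8 3.04 ± 0.20. All 8 interactions were called lower with TMM, against 13.1% of all genes. Under library totals these calls were lost and the median interaction of -1.26 became -0.18. With TMM, all 73 genes of the mitochondrial ribosome rose in both genotypes, against 34.9% and 33.3% of all genes. Their medians were 2.63 and 2.89. Under library totals 67 rose and 1 fell in Rbf-KD, and 34 rose and 21 fell in WT. Their interaction was called lower for 37 and higher for 9, against 13.1% and 17.2% of all genes, and was not called for 27. Its median of -0.36 turned to 0.72 under library totals. The members mRpL55 and mRpL40 rose by 3.97 ± 0.09 and 3.44 ± 0.08, while mRpL18 rose by 2.32 ± 0.10 in Rbf-KD and by 4.41 in WT.

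Of 11 components of the Rb/E2F and dREAM complexes, 2 rose and 6 fell in Rbf-KD, with a median of -0.59 beside -1.46 in WT. The shares of all genes were 34.9% higher and 39.2% lower. The interaction was called higher for 8 of the 11, against 17.2% of all genes. E2f1 (FBgn0011766, arm 3R), the activating E2F, was at 95.4, 118.4 and 118.8 CPM in Rbf-KD notum and at 95.4 and 82.9 CPM in Rbf-KD muscle. The groups overlapped and the change of -0.31 ± 0.15 was not called (edgeR adjusted p = 0.0875), while E2f1 rose by 0.64 in WT to 161 and 186 CPM. E2f2 (FBgn0024371, arm 2L), the repressive E2F, rose by 1.12 ± 0.09, from 26.3, 28.3 and 26.5 CPM to 59.1 and 58.8 CPM. Dp, the partner of both, fell by 0.59 ± 0.15. The second retinoblastoma family gene, Rbf2, fell by 2.75 ± 0.29 to 3.62 and 2.77 CPM in Rbf-KD and was at 0 and 0.268 CPM in WT muscle. The histone-binding subunit Caf1-55 fell by 3.12 ± 0.15, Myb fell by 1.602 ± 0.15 and mip40 fell by 1.42 ± 0.10, while mip120 was at 48.5 and 50.2 CPM in muscle beside 45.1 to 48.8 CPM in notum. Myb overlaps another gene and is uncertain.

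DNA replication genes fell less in Rbf-KD muscle than in WT muscle. Of 46 genes tested, 43 fell in WT, with a median of -3.60. In Rbf-KD 16 of these 43 fell, 15 rose and 12 were not called, and over the list 18 rose and 16 fell with a median of 0.07, beside -0.23 for all genes. The interaction was called higher for 40 of 46, against 17.2% of all genes, and its median of 3.46 was 3.30 with DESeq2 size factors and 4.53 with library totals. Under library totals 0 of the 46 genes rose and 42 fell in Rbf-KD, with a median of -1.61 beside -1.90 for all genes. Its summed level was 1766 to 1870 CPM in Rbf-KD notum, 1924 and 2232 CPM in Rbf-KD muscle and 325 and 363 CPM in WT muscle.

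PCNA (FBgn0005655, arm 2R), the sliding clamp, and RnrS, the small subunit of ribonucleotide reductase, were named outside the rule. PCNA was at 56.0, 52.6 and 61.5 CPM in Rbf-KD notum and at 53.7 and 60.4 CPM in Rbf-KD muscle, so the groups overlapped. In WT it was at 55.0, 65.7 and 56.6 CPM in notum and at 1.51 and 1.27 CPM in muscle, far below every other library (interaction 5.41 ± 0.20, edgeR adjusted p = 1.4e-06). RnrS had a log2 change of -0.02 ± 0.09 in Rbf-KD and of -4.10 in WT. The helicase subunit Mcm5 (FBgn0017577, arm 3R) fell by 0.50 ± 0.08 in Rbf-KD, to 39.1 and 40.4 CPM, and fell by 5.63 in WT, to 1.07 and 1.07 CPM.

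Other replication genes were higher in Rbf-KD muscle than in Rbf-KD notum. The checkpoint adaptor Claspin (FBgn0052251, arm 3L) was at 31.5, 31.4 and 31.4 CPM in notum and 58.3 and 68.5 CPM in muscle, a rise of 1.01 ± 0.10, and at 1.135 and 0.870 CPM in WT muscle. The licensing factor double parked (dup), the fly Cdt1, rose by 1.76 ± 0.15, from 20.8, 19.5 and 23.3 CPM to 67.6 and 76.2 CPM. Rises were also called for the firing factor Cdc45 (0.95 ± 0.08), the primase Prim1 (1.26 ± 0.11), the polymerase epsilon subunit PolE2 (1.59 ± 0.17) and the nuclease-helicase Dna2 (1.22 ± 0.11). Under library totals the Rbf-KD values of Cdc45, Prim1, PolE2, Dna2 and Claspin turned negative.

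DNA repair and checkpoint genes followed in part. Of 25 tested, 21 fell in WT and 14 in Rbf-KD, where 6 rose, against 39.2% lower and 34.9% higher among all genes, with medians of -2.82 and -0.43. The interaction was called higher for 19 and lower for 1, against 17.2% and 13.1% of all genes. Under library totals 0 rose and 24 fell in Rbf-KD, with a median of -2.11. The double-strand break nuclease mre11 (FBgn0020270, arm 2L) rose by 1.68 ± 0.09 in Rbf-KD, from 43.7, 46.4 and 47.8 CPM to 139 and 156 CPM, and fell by 3.78 in WT. Its partner rad50 fell by 0.37 ± 0.08 in Rbf-KD and fell by 4.67 in WT. The checkpoint kinases grp (Chk1), lok (Chk2) and mei-41 (ATR) still fell in Rbf-KD, with log2 changes of -3.79 ± 0.12, -2.23 ± 0.10 and -3.58 ± 0.16, each smaller than in WT (-5.58, -3.82 and -5.24).

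**Figure D4:**
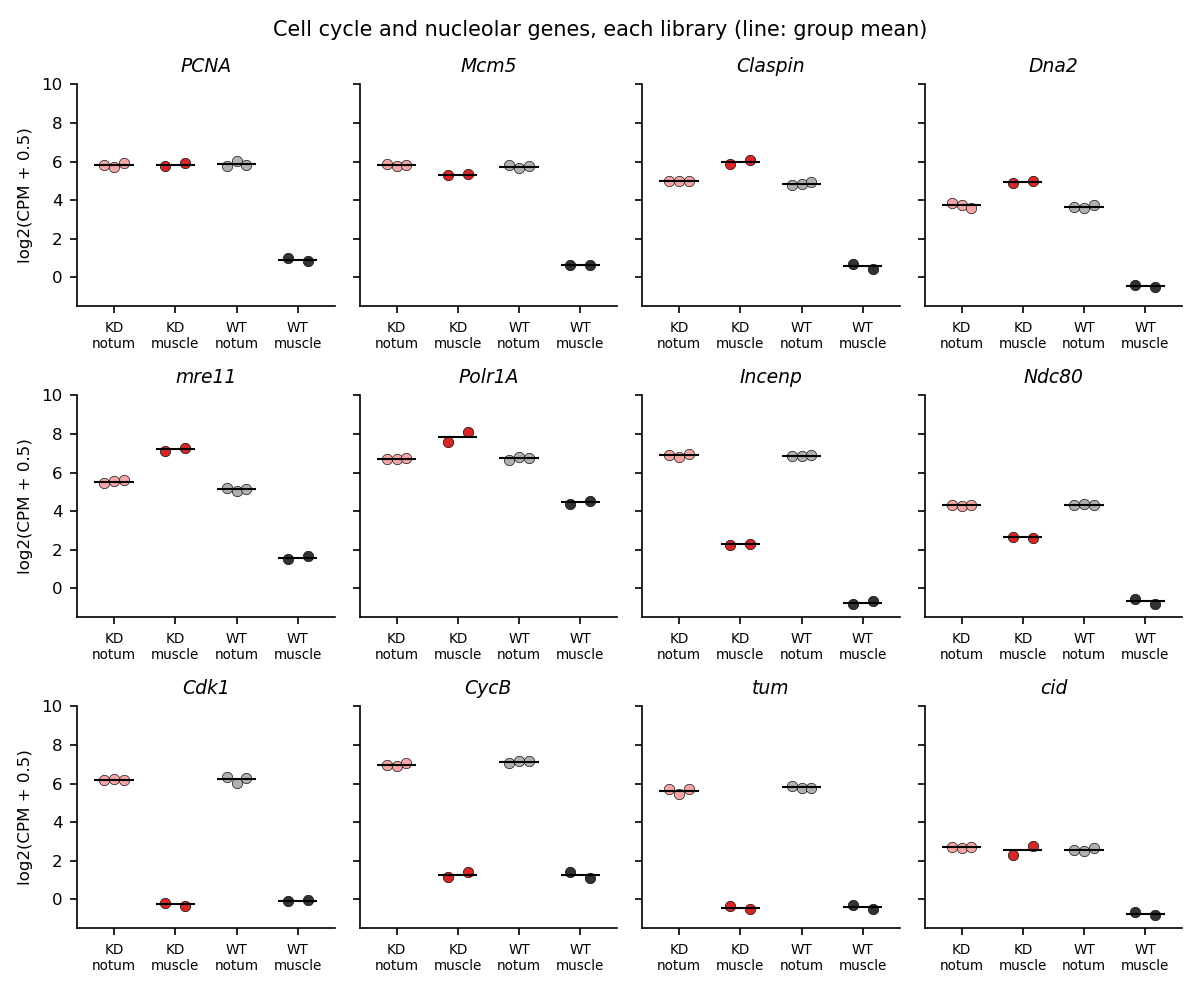
Points are log2(CPM + 0.5) of each library for 12 genes, in Rbf-KD notum, Rbf-KD flight muscle, WT notum and WT flight muscle, and black lines are group means. PCNA, Mcm5, Claspin, Dna2, mre11, Polr1A and cid stay near or above the notum level in Rbf-KD muscle, Incenp and Ndc80 lie between, and Cdk1, CycB and tum are as low as in WT muscle.

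Mitotic genes, by contrast, still fell. Of 41 tested, 35 fell and 3 rose in Rbf-KD, against 39.2% lower among all genes, with a median of -2.61 beside -5.15 in WT. Cdk1 (FBgn0004106, arm 2L), the kinase that starts mitosis, went from 72.5, 74.9 and 71.8 CPM in Rbf-KD notum to 0.374 and 0.297 CPM in Rbf-KD muscle, a change of -7.77 ± 0.16 (edgeR adjusted p = 5.14e-09). WT muscle had 0.441 and 0.468 CPM. The interaction was -0.42 ± 0.27 for Cdk1 and 0.03 ± 0.38 for the central spindle gene tum, which fell by 7.71 ± 0.19, and neither was called. Cyclin B (CycB) and the spindle motor Klp61F, named outside the rule, had log2 changes of -6.02 ± 0.16 and -7.31 in Rbf-KD and of -6.21 and -7.59 in WT.

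For 24 of the 41 mitotic genes the fall was called in both genotypes and was smaller in Rbf-KD, against 8.73% of all genes. Incenp (FBgn0260991, arm 2R), a subunit of the chromosomal passenger complex, was at 118.3, 112.3 and 125.0 CPM in notum and at 4.30 and 4.38 CPM in Rbf-KD muscle, beside 0.0631 and 0.134 CPM in WT muscle. The kinetochore gene Ndc80 fell by 1.75 ± 0.13 in Rbf-KD and fell by 7.22 in WT. Polo kinase (polo) and Cyclin A (CycA), named outside the rule, had log2 changes of -6.16 and -5.46 in Rbf-KD and of -8.66 and -8.54 in WT. The centromeric histone gene cid, also outside the rule, differed from these. It was at 6.17, 5.89 and 6.004 CPM in Rbf-KD notum and at 4.46 and 6.36 CPM in Rbf-KD muscle, so that the groups overlapped, and at 0.126 and 0.0669 CPM in WT muscle. The summed level of the list was 519 and 523 CPM in Rbf-KD muscle and 376 to 399 CPM in WT muscle, against 2756 to 2980 CPM in Rbf-KD notum.

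Ribosome biogenesis genes also fell less in Rbf-KD than in WT. Of 22 nucleolar genes tested, 21 fell in WT with a median of -2.84, whereas in Rbf-KD 9 rose, 4 fell and 9 were not called, with a median of 0.17. Among all genes 43.4% fell in WT, and 34.9% rose and 39.2% fell in Rbf-KD. All 22 interactions were called higher with TMM, against 17.2% of all genes. They were also called higher with library totals, where 6989 of all 13407 genes were. Under library totals 0 rose and all 22 fell in Rbf-KD, with a median of -1.52 beside -1.90 for all genes. Polr1A (FBgn0019938, arm 2R), the largest subunit of RNA polymerase I, was at 102.4, 103.8 and 108.1 CPM in Rbf-KD notum, 194 and 279 CPM in Rbf-KD muscle and 20.1 and 22.9 CPM in WT muscle. The second subunit Polr1B rose by 0.59 ± 0.12, the ribosome assembly genes bys and Non1 by 0.68 ± 0.10 and 0.81 ± 0.15, and the nucleolar gene l(2)k09022 by 0.52 ± 0.15. The last was not called without Rbf-KD muscle library 2 (0.25, edgeR adjusted p = 0.158).

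Calls for cytosolic ribosomal protein genes rest on the scaling. Of 85 tested, 68 rose and 5 fell in Rbf-KD, against 34.9% and 39.2% of all genes, with a median of 0.70 beside 0.67 in WT. Both medians turned negative under library totals (-0.98 and -2.08), where 2 rose and 72 fell in Rbf-KD. The medians of all genes were then -1.90 and -3.24. With TMM the interaction was called higher for 2 genes and lower for 7 (median 0.01), against 17.2% and 13.1% of all genes. With library totals it was called higher for 75 and lower for 0 (median 1.09). Of all 13407 genes, 6989 were then called higher and 365 lower, with a median of 1.17. RpS4 and RpL28 rose by 1.69 ± 0.12 and 2.16 ± 0.16 in Rbf-KD and by 1.26 and 1.84 in WT. RpL10Ab and RpS12 fell in Rbf-KD, with log2 changes of -0.41 ± 0.10 and -0.61 ± 0.11, and rose by 0.81 and 0.46 in WT. How reads shared between members of this multigene family were counted is not given in the sources used here, and their counts are uncertain.

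Most genes that pattern the larval disc fell. All 22 Wnt and Notch signalling genes tested and 22 of 25 epithelial and notum patterning genes fell in Rbf-KD, against 39.2% of all genes, with medians of -5.77 and -3.55 beside -5.79 and -4.75 in WT, where 21 of 22 and 21 of 25 fell and 3 of the latter rose. The 6 lowest fold changes by the naming rule follow. Scute (sc), the proneural factor of bristle precursors, was at 20.3, 24.1 and 19.9 CPM in Rbf-KD notum and had 0 counts in both Rbf-KD muscle libraries, so it was at least 518.9-fold lower (floor of 3 counts over the group). The Bearded family gene Ocho, also at 0 in both, was at least 426.7-fold lower. Its relative Tom, with 0 and 2 counts in the Rbf-KD muscle libraries, fell by 11.74 ± 0.32. ImpE2, an ecdysone-inducible gene of imaginal discs, fell by 13.49 ± 0.53, from 997, 1570 and 1278 CPM to 0.0312 and 0.173 CPM.

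The remaining lowest values were those of the lectin gene nw (-10.16 ± 0.50) and the sulfotransferase gene St2 (-9.59 ± 0.74). The compartment genes engrailed (en) and invected (inv) had log2 changes of -5.50 ± 0.21 and -5.74 ± 0.17, and the Notch target E(spl)m2-BFM fell by 6.94 ± 0.22. Extra macrochaetae (emc), an antagonist of proneural factors, fell by 0.82 ± 0.18 in Rbf-KD and rose by 0.64 in WT.

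Of 18 ecdysone response genes, 6 rose and 7 fell in Rbf-KD, shares near those of all genes (34.9% and 39.2%), with a median of -0.61. Broad (br), a transcription factor of the larval to pupal transition, fell by 5.46 ± 0.41 in Rbf-KD and fell by 5.599 in WT, and ftz-f1, the nuclear receptor of the prepupal and late pupal competence periods, rose by 8.76 ± 0.18 and 7.86. The nuclear receptor gene Eip78C fell by 1.19 ± 0.22 in Rbf-KD, its WT value of 0.49 was not called (edgeR adjusted p = 0.0573), and the interaction was -1.67 ± 0.30. The notum libraries varied for this list, with sums of 2749, 4395 and 3717 CPM in Rbf-KD and of 2088, 3948 and 2971 CPM in WT, and library 1 was the lowest of each genotype.

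The 6 highest interactions by the naming rule were those of Septin5, Drsl3, Chd3, the selenoprotein gene BthD, Dna2 and PolE2. Septin5 (FBgn0026361, arm 2R), a septin gene, was at 15.002, 15.1 and 15.7 CPM in Rbf-KD notum and at 0.655 and 0.816 CPM in Rbf-KD muscle, while both WT muscle libraries had 0 counts. The chromatin remodeller gene Chd3 was at 9.01 and 8.68 CPM in Rbf-KD muscle and at 0.0631 and 0 CPM in WT muscle. BthD rose by 2.01 ± 0.14 in Rbf-KD, to 43.0 and 52.6 CPM, and fell by 5.29 in WT. The antimicrobial-type peptide gene Drsl3 was uneven, at 140 and 18.4 CPM in the 2 Rbf-KD muscle libraries, and its rise of 6.95 ± 0.75 rests on 2 libraries that differ widely.

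The 6 lowest interactions by the naming rule, which leaves out lmd for its low level, were those of Cln3, a lysosomal membrane protein gene, Cyp4g1, a cytochrome P450 of hydrocarbon synthesis, Blimp-1, an ecdysone-induced repressor, the transporter gene bumpel, aop and the cytochrome P450 gene Cyp4e3. Cln3 rose in both genotypes, to 13.2 and 11.7 CPM in Rbf-KD muscle and to 267 and 274 CPM in WT muscle. The ETS repressor aop (FBgn0000097, arm 2L), also called yan, fell by 3.57 ± 0.51 in Rbf-KD, from 50.6, 75.4 and 83.0 CPM to 5.11 and 6.63 CPM, and was at 158 and 127 CPM in WT muscle. Blimp-1 was at 7.27 and 32.7 CPM in Rbf-KD muscle and at 582 and 509 CPM in WT muscle, against 49.1 to 103 CPM in Rbf-KD notum. Its change of -1.999 ± 0.71 was not called without Rbf-KD muscle library 1 (-1.31, edgeR adjusted p = 0.138) or Rbf-KD notum library 2 (-1.82, 0.0551). Cyp4g1 had 3.90 and 1.86 CPM in Rbf-KD muscle and 192 and 24.1 CPM in WT muscle, bumpel fell by 2.19 ± 0.29 in Rbf-KD, and Cyp4e3 rose by 5.64 ± 0.36.

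Of 11 fat body markers 7 rose and 2 fell in Rbf-KD, against 34.9% and 39.2% of all genes, with a median of 4.81. In WT 1 rose and 2 fell. The interaction was called higher for 7 and lower for 1, against 17.2% and 13.1% of all genes. The larval serum protein genes Lsp1gamma and Lsp1beta were at 770 and 850 CPM and at 984 and 938 CPM in Rbf-KD muscle, beside 70.2 and 58.8 CPM and 63.9 and 68.5 CPM in WT muscle. The lipoprotein gene apolpp was at 2810 and 2011 CPM in Rbf-KD muscle and 325 and 240 CPM in WT muscle. The yolk protein genes of the list were near 0 in Rbf-KD muscle, Yp1 at 0.0312 and 0.0989 CPM and Yp2 at 0.187 and 0.0989 CPM. Rbf-KD muscle thus differed from WT muscle in fat body transcripts as well as in replication, nucleolar and metabolic genes, and the part of the former in the latter was not tested.

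Hemocyte markers rose for 8 of 11 genes in both genotypes, against 34.9% of all genes in Rbf-KD and 33.3% in WT. Their sums were 2139 and 2281 CPM in Rbf-KD muscle and 1177 and 1280 CPM in WT muscle. Hml, an adhesive protein of blood cells, rose by 7.60 ± 0.22 in Rbf-KD and by 6.05 in WT, and the collagen gene Col4a1 by 4.12 ± 0.17 and 2.86. Of 11 neuronal markers 10 rose in Rbf-KD, with sums of 282 and 529 CPM in muscle against 84.7 to 88.99 CPM in notum. Glial markers rose for 5 of 8 genes and fell for 2, tracheal markers rose for 3 of 10 and fell for 5, tendon markers rose for 1 of 6 and fell for 2, and cuticle and pigment genes rose for 4 of 10 and fell for 5. The counts of these last 3 lists lie near the shares of all genes (34.9% higher and 39.2% lower). The part of the marker genes in the stage difference was not tested.

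**Figure D5:**
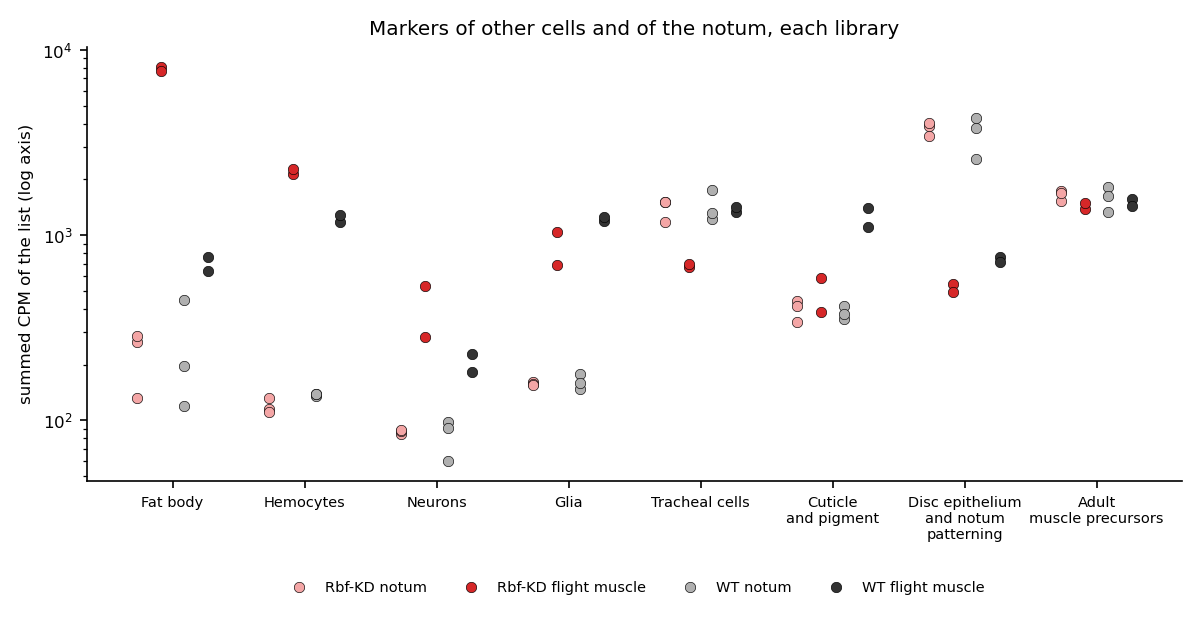
Points are the summed CPM of 8 marker lists in each library, on a log axis, for the 4 groups. Fat body markers are at 8103 and 7682 CPM in the Rbf-KD muscle libraries and lower in all other libraries, and epithelial markers are lower in muscle than in notum in both genotypes.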

How the data were processed

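The deposited table holds raw counts of reads per transcript for 29173 transcripts in 10 libraries, not normalized. Per the labels' protocols, total RNA was depleted of ribosomal RNA with Ribo-Zero and made into stranded TruSeq libraries. The submitters' processing notes name TopHat2 2.1.1 with Bowtie2 2.3.2, featureCounts of the Subread package, bcl2fastq 2.17.1.14 and FastQC, DESeq2 1.14.1, and the build BDGP5. The annotation, the strand setting and the treatment of shared reads are not given in the sources used here.

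Transcripts were matched by identifier to the BDGP6 annotation. In all, 27011 (92.6%) matched 15259 genes, and 2162 unmatched ones, with 9.86% to 20.3% of a library's counts, stayed out of library sizes and tests. Each gene was represented by the transcript with most reads over the 10 libraries. Only chromosome arms are given, since the builds differ. For 2462 genes at least 10% of that transcript overlaps exons of another gene on either strand, and their counts are uncertain.

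Low genes were removed with filterByExpr at a minimum count of 10 and a minimum total of 15. The rest were TMM-scaled and fitted over all 10 libraries with edgeR 4.0.16 (R 4.3.3, robust quasi-likelihood F test, 6 residual degrees of freedom, Benjamini-Hochberg adjusted p under 0.05 over 13407 genes). Contrasts were flight muscle minus notum in Rbf-KD, the same in WT, and their difference. A count of 0 allows up to 3 counts, 0.0329 to 0.0936 CPM in an Rbf-KD library, for counting error only. The fits were tested on simulated data with known changes. The interaction test called 20% of simulated differences of 1 on the log2 scale and 76% of those of 2. The Rbf-KD stage test called 79% and 98%. Alternatives were DESeq2 1.42.0 size factors and test, library totals, no low-count filter, transcript sums, the 5 libraries of a contrast alone, a replicate block and leaving out each library. Leaving out overlapping genes was chosen after seeing the data. No 2 libraries of a group agreed within sampling noise.

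The comparison and the gene lists were chosen with earlier results of these data known, and lists carry no test. Named by rule are Rbf, E2f1, E2f2, Dp and Mef2. For the Rbf-KD stage difference and for the interaction, the 6 highest and 6 lowest genes are named among those called, protein coding, properly named (not by a CG or CR number), without overlap of the groups and at 5 CPM or more on average. From each list up to 3 genes of smallest adjusted p, and up to 2 for the interaction, could be named, and genes of this set that the text leaves out are counted with their list. Amph, twi, Mhc, bru1, lmd, PCNA, RnrS, CycB, Klp61F, polo, CycA, cid, Ldh, Yp1 and Yp2 were chosen after their values were seen. The listed genes Strn-Mlck, lms, dys and a few others without a match were not analysed here.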

Additional observations from a re-analysis of the deposited data

Results flagged for a closer look

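The stage difference in Rbf-KD minus that in WT passed the edgeR interaction test for 93 of the 128 genes named in the text. Each is given here with its value on the log2 scale. Many of these genes were named because of their interaction, so 93 of 128 cannot be compared with the share among all genes. Among all genes tested, 2310 (17.2%) passed higher and 1759 (13.1%) lower. Replication genes gave 6.95 for Dna2, 6.71 for PolE2, 5.83 for Claspin, 5.41 for PCNA, 5.12 for Mcm5 and 4.09 for RnrS. Smaller positive values were those of 3.41 for Prim1, 2.63 for Cdc45 and 2.26 for dup. Repair and checkpoint genes gave 5.47 for mre11, 4.30 for rad50, 1.79 for grp, 1.66 for mei-41 and 1.58 for lok. The mitotic and centromeric genes had 5.64 for cid, 5.47 for Ndc80, 5.43 for Incenp, 3.08 for CycA and 2.50 for polo. Nucleolar genes gave 3.58 for l(2)k09022, 3.55 for Polr1B, 3.48 for Polr1A, 1.57 for bys and 1.139 for Non1. Among the Rb/E2F genes the values were 4.61 for Rbf2, 1.76 for Rbf, 1.54 for mip120, 1.15 for Caf1-55, 0.92 for E2f2, 0.79 for Myb, 0.50 for mip40 and -0.96 for E2f1. The genes with the highest values by the naming rule were joined by 8.51 for Septin5, 8.38 for Drsl3, 8.04 for Chd3 and 7.29 for BthD. Low values were those of -5.50 for Cln3, -5.40 for lmd, -5.21 for Cyp4g1, -4.98 for Blimp-1, -4.78 for bumpel, -4.73 for aop and -4.72 for Cyp4e3. Sugar metabolism was lower, at -3.31 for Gapdh1, -3.01 for Gpdh1, -2.81 for UGP, -2.73 for Pgm1, -2.63 for Eno, -2.41 for Pglym78, -2.06 for PyK and -1.15 for Glyp. Respiratory and TCA genes had -2.02 for Cyt-c-p, -1.69 for Idh3a, -1.69 for Pdhb, -1.69 for ND-13A, -1.43 for ATPsynbeta, -1.33 for Idh3g and -1.22 for ND-42. Mitochondrial transcripts and mitochondrial ribosome genes had -2.09 for mRpL18, -1.69 for mt:ATPase8, -1.27 for mt:CoIII, -1.17 for mt:CoI and -0.76 for mRpL55. Contractile and Z-disc genes had -2.25 for sals, -2.10 for tmod, -2.09 for TpnC4, -1.91 for fln, -1.40 for Act88F, -1.40 for Tm1, -1.25 for Fhos and -1.10 for Actn. Further muscle genes were -3.50 for Orai, -0.87 for Mlc2, -0.58 for sqa and -1.06 for blow. Among the myogenic regulators, where 4 of 17 genes passed higher and 2 lower, the values beside lmd were 3.65 for Him, 1.44 for salr and 1.15 for mbl. Ribosomal protein genes had -1.22 for RpL10Ab and -1.06 for RpS12. Cell death genes were -1.64 for hid, -1.38 for Dronc, -0.39 for Drice and 1.08 for Dcp-1. Ecdysone and patterning genes were -1.67 for Eip78C, -1.46 for emc, 0.90 for ftz-f1 and 1.19 for inv. Fat body and blood cell markers were higher, at 4.35 for Lsp1beta, 3.84 for Lsp1gamma, 3.76 for apolpp, 1.55 for Hml and 1.26 for Col4a1. The values of Drice, Mlc2, fln and mip40 were not called when 8 or 9 of the 10 libraries were left out in turn: 8 for Drice (adjusted p up to 0.0833), 9 for Mlc2 (0.108), 8 for fln (0.181) and 9 for mip40 (0.131). Those of apolpp, sqa, Myb and inv were lost for 3, 3, 2 and 1 of them (adjusted p up to 0.0726, 0.113, 0.0601 and 0.111).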

How the results depend on the processing

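Under DESeq2 size factors, no low-count filter, sums over transcripts, the 5 libraries of a contrast alone and leaving out overlapping genes, the counts of genes stayed within 1.5 times their values, and no called value of a named gene changed sign. DESeq2's own test called 2651 interactions lower in place of 1759. Library totals moved most counts: 2153 higher and 9190 lower in Rbf-KD, 1464 and 10235 in WT, 6989 and 365 for the interaction, with 1353 as the count of genes higher in both genotypes and 9036 of genes lower in both genotypes. The lists with a median above 0 were then 11 in WT and 25 for the interaction. Called values that turned sign under library totals were, for the Rbf-KD stage difference, E2f2 (-0.55), Dna2 (-0.46), PolE2 (-0.089), Cdc45 (-0.73), Prim1 (-0.42), Claspin (-0.67), Polr1A (-0.51), bys (-1.003), Non1 (-0.88), Polr1B (-1.10), l(2)k09022 (-1.17) and tmod (-1.12). For WT they were E2f1 (-2.11), bumpel (-0.16), aop (-1.56), RpS4 (-1.5), RpL28 (-0.92), RpL10Ab (-1.95), RpS12 (-2.30), tmod (-0.087), salr (-1.77), Dronc (-1.78) and emc (-2.11), and for the interaction E2f1 (0.12), RpS12 (0.019), mRpL55 (0.32), Mlc2 (0.22), sqa (0.49), blow (0.008) and Drice (0.69). The shift of the median gene given in the report is built into this scaling.

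Leaving out each of the 10 libraries in turn gave 4264 to 4724 higher and 4713 to 5391 lower genes in Rbf-KD, 4176 to 4535 and 5347 to 5877 in WT, and 1707 to 2148 and 1384 to 2052 for the interaction. Genes higher in both genotypes ranged from 3613 to 3903 and lower in both from 4312 to 4533. Lists with a median above 0 ranged from 17 to 19, 17 to 20 and 11 to 15.

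Same-numbered notum and muscle libraries did not deviate together (correlations of -0.0195 and -0.0106 in Rbf-KD, -0.0714 and -0.0756 in WT). The deviations of 2 muscle libraries from their mean mirror each other, so this check cannot tell whether the numbers pair the samples. With the replicate block, 4571 genes were higher and 5152 lower in Rbf-KD, 4380 and 5647 in WT, and 2025 and 1610 for the interaction. Only 2 muscle libraries a group limit what the interaction test can detect.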

Other observations

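Of 13 cell death genes, 3 rose and 8 fell in Rbf-KD, beside 34.9% higher and 39.2% lower among all genes, with a median of -0.71 beside -1.16 in WT. The apoptosis inducer hid was at 43.9, 53.3 and 54.9 CPM in Rbf-KD notum and at 7.02 and 6.13 CPM in Rbf-KD muscle, beside 18.48 and 18.3 CPM in WT muscle. The initiator caspase Dronc had 49.6 and 64.3 CPM in Rbf-KD muscle and 123 and 154 CPM in WT muscle, and its Rbf-KD change of -0.41 was lost (edgeR adjusted p up to 0.218) for 2 of the 10 libraries left out. The effector caspases Drice and Dcp-1 had log2 changes of -1.55 and -2.20 in Rbf-KD, and Dcp-1 overlaps another gene and is uncertain.

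Of 13 heat shock genes, 7 rose and 5 fell in Rbf-KD, beside 34.9% higher and 39.2% lower among all genes. Their median was 0.57, and -1.11 under library totals. Their sums were 9653 and 12134 CPM in Rbf-KD muscle, while the WT muscle libraries differed from each other, at 7759 and 3233 CPM.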
